A study of Mus musculus with 52 samples.

Results

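The 9 genes described here are Yap1, its chromosome 9 neighbours Birc2 and Birc3, the partners Wwtr1 and Tead1, and 4 genes of Hippo pathway output, Ccn1, Ccn2, Lats2 and Amotl2. They were listed by name, with no threshold on a measured value but with earlier results of these data known, and are 9 of the 20730 genes in the count table, all of which passed the filter on low counts. The question asked of them was whether Yap1, Birc2 and Birc3 rose together in single tumours, and whether the genes of pathway output followed. Bulk RNA from primary mouse osteosarcomas, flash frozen, was sequenced as stranded mRNA in 52 libraries of 3 genotypes. Both copies of the tumour suppressor gene Trp53 were conditional in p53fl/fl tumours. In p53R172H/fl and p53R245W/fl tumours 1 copy was conditional and the other held the missense mutation of the name, so every group held at least 1 conditional allele and none had 2 unaltered alleles. The sources used here do not give the Cre driver, the strain or the age of the mice. Libraries whose expression matched were summed, because 18 libraries each matched 1 other library of the same genotype. The 34 resulting units comprised 10 of genotype p53fl/fl, 13 of p53R172H/fl and 11 of p53R245W/fl. A unit is named by its tumour numbers, as in 1431/471 for a summed pair.

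The Hippo pathway is a kinase cascade in which MST kinases activate LATS kinases, and LATS kinases phosphorylate YAP (from Yap1) and TAZ (from Wwtr1) and keep them out of the nucleus. When the cascade is off, YAP and TAZ enter the nucleus, bind TEAD factors such as the product of Tead1, and raise genes that include Ccn1, Ccn2, Lats2 and Amotl2. Birc2 and Birc3 encode the ubiquitin ligases cIAP1 and cIAP2, which act in TNF receptor and NF-kB signalling and restrain cell death. The segment with Yap1, Birc2 and Birc3 is known as a recurrent amplicon in several mouse and human tumours.

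Library totals ranged from 21596798 to 67223388 counts, and unit totals from 42828952 to 118932168. The lowest count of any of the 9 genes in a single library was 519, for Birc3. Column names placed the libraries in 3 sets, A, B and C, and set A held no p53R245W/fl library, so set and genotype are partly confounded. Trp53 matched the labels. It gave 15.3 ± 3.6 CPM (counts scaled to a common library size with TMM factors, SD, n = 10) in p53fl/fl, 36.1 ± 6.1 CPM (SD, n = 13) in p53R172H/fl and 35 ± 10.2 CPM (SD, n = 11) in p53R245W/fl units, and the p53fl/fl range, up to 19.5 CPM, did not overlap the others. Osteoblast markers such as Col1a1 and Runx2 were present in every group, with a summed level from 3100 to 178000 CPM over units. Units 1580, 1831/494 and 1835/408, all p53R245W/fl, had low Col1a1. Nothing in the labels says that the tumours of a group came from separate animals, so p-values measure the spread between units.

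Per kilobase of annotated exon, the secreted matrix proteins Ccn1 and Ccn2 had the highest levels of the 9 genes. Their medians over the 34 units were 47.4 and 47.2 CPM per kb. Wwtr1 followed at 33.6, then Lats2 at 11.9, Yap1 at 11.2, Amotl2 at 10.8, Birc2 at 7.84, Birc3 at 7.18 and Tead1 at 4.20 CPM per kb. Wwtr1 lay above Yap1 per kb in 32 of 34 units. Neighbours in this order did not always separate, since Ccn1 exceeded Ccn2 in 16 units, Lats2 exceeded Yap1 in 17 and Yap1 exceeded Amotl2 in 18. The annotated exon length counts every transcript form, so these are approximate levels.

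On GRCm38, Birc2 (ENSMUSG00000057367.12, chr9:7818227-7837064), Birc3 (ENSMUSG00000032000.17, chr9:7848699-7873186) and Yap1 (ENSMUSG00000053110.13, chr9:7931999-8004596) follow each other on the minus strand. The gap from Birc2 to Birc3 is 11634 bases and that from Birc3 to Yap1 is 58812 bases. Amotl2 is also on chromosome 9 but far away (chr9:102716672-102733418). The other members are Wwtr1 (chr3:57455649-57575910), Ccn1 (chr3:145646976-145649981), Ccn2 (chr10:24595442-24598683), Lats2 (chr14:57689662-57758388) and Tead1 (chr7:112679318-112906807).

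The 250 bases upstream of the start are shown for the 3 neighbours and for Ccn1, since the first question is whether the neighbours share expression and Ccn1 is a standard readout of YAP and TAZ. They come from RefSeq on GRCm38.p6, on the gene's strand, and capitals mark the 6-base core of a TEAD-type motif, GGAATG or its reverse complement CATTCC.
Yap1 (chr9:8004597-8004846): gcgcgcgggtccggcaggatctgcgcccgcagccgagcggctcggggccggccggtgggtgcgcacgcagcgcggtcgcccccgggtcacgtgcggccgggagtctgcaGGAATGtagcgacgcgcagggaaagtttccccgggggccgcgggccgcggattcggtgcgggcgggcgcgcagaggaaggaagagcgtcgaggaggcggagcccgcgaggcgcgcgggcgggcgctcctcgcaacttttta
Birc2 (chr9:7837058-7837307): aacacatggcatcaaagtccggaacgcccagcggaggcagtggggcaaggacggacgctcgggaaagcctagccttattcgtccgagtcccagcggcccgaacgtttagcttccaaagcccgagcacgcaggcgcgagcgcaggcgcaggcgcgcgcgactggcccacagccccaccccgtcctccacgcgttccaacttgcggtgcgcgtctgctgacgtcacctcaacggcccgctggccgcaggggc
Birc3 (chr9:7873171-7873420): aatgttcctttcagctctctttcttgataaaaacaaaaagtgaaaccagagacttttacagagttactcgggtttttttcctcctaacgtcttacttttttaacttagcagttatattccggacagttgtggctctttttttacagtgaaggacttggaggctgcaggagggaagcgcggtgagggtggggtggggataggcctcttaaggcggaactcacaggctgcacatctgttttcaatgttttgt
Ccn1 (chr3:145649986-145650235): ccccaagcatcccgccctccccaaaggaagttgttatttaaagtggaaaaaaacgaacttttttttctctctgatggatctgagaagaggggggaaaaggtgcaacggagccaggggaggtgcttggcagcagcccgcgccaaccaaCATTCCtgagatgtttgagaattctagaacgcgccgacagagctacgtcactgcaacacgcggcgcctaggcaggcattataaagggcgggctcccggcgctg
The motif was searched on both strands in windows of 250 bases before and 50 after each start. It was found in 6 of the 10 windows available for 7 members. The 2 windows of Wwtr1 overlap and hold the same site, and by gene 5 of 7 members held the motif. Of all 32851 windows, 14.7% held it, a share by window and not by gene. In Yap1 it starts 141 bases upstream, in Ccn1 103, in Amotl2 65, and in Wwtr1 136 or 170 depending on the start used. In Lats2 it starts 5 bases after 1 of 2 starts. The windows of Birc2 and Birc3 held none. GC content was 76.4% in the Yap1 stretch, 68.4% in that of Birc2, 43.6% in that of Birc3 and 54.8% in that of Ccn1. A match of these letters is a description and not evidence of a bound site.

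Yap1, the transcriptional coactivator of the pathway, was over 2 times its median in 2 of 34 units and ran from 57.3 to 190.5 CPM in the rest. In p53fl/fl units it ran from 57.3 CPM through a median of 103.5 to 368.8 CPM, in p53R172H/fl from 80.4 through 118.8 to 190.5 CPM, and in p53R245W/fl from 66.3 through 87.0 to 1038.8 CPM. The top values were in unit 1431/471 (p53fl/fl) and unit 1580 (p53R245W/fl), and the next highest unit of any genotype had 190.5 CPM. Apart from those units, the 3 genotypes overlapped throughout.

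Birc2, which encodes cIAP1, ran from 24.2 through 50.9 to 184.1 CPM in p53fl/fl units. It ran from 27.1 through 35.3 to 54.6 CPM in p53R172H/fl and from 31.1 through 38.2 to 49.6 CPM in p53R245W/fl units. The highest 3 values, 184.1, 112.4 and 84.1 CPM, belonged to the p53fl/fl units 1431/471, 1512 and 1606, and the mutant groups lay inside the remaining p53fl/fl range.

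Birc3, which encodes cIAP2, ran from 23.6 through 37.6 to 105.9 CPM in p53fl/fl, from 19.8 through 31.7 to 51.4 CPM in p53R172H/fl and from 13.6 through 42.8 to 67.7 CPM in p53R245W/fl units. Units 1431/471 (105.9 CPM) and 1606 (83.0 CPM) were the highest. Unit 1835/408 (13.6 CPM) and unit 1580 (16.9 CPM) were the lowest, so the unit with the most Yap1 had the second lowest Birc3.

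**Figure D1:**
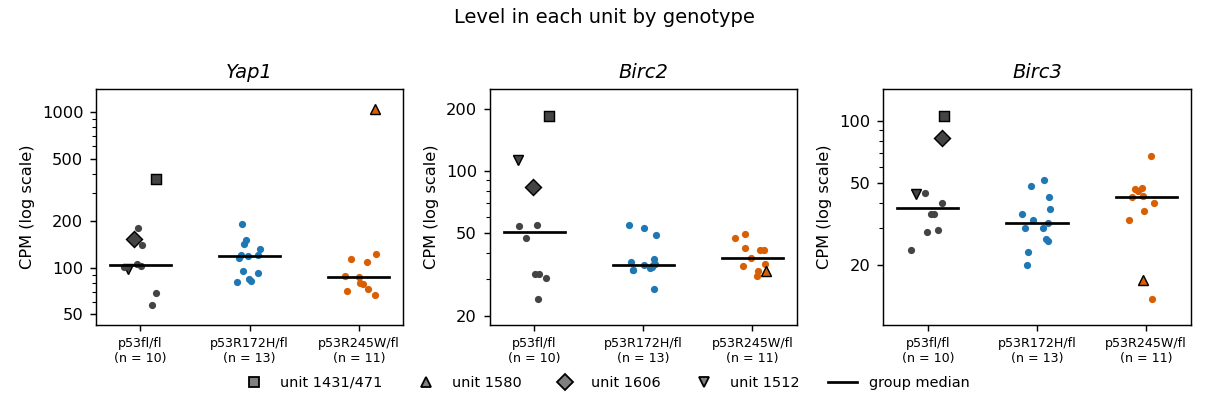
Level of Yap1, Birc2 and Birc3 in CPM (log axis) in each of the 34 units, by genotype, with the group median as a bar and 4 units marked by shape. Unit 1431/471 is high in all 3 genes, whereas unit 1580, at 1038.8 CPM of Yap1, is not high in Birc2 or Birc3.

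All 3 neighbours exceeded 2 times their own median over the units in 1 of 34 units, 1431/471. In that unit 7.43% of 14896 genes with a mean of at least 1 CPM passed the same limit. Of 13210 runs of 3 adjacent protein-coding genes with such a mean, 38 (0.288%) had all 3 genes over it. Other units had from 6 (6019/327) to 201 (1835/408) such runs. Yap1 was 3.56 times, Birc2 5.13 times and Birc3 2.95 times the median of all units. The unit sums 2 libraries from different sets, and each showed the pattern alone. Library 1431 (set A) had 348.2, 169.7 and 97 CPM of Yap1, Birc2 and Birc3, and library 471 (set B) had 370.3, 190.1 and 110.1 CPM. Relative to the median of its own set, library 1431 was 1.58, 2.29 and 1.48 log2 units higher and library 471 was 1.84, 2.43 and 1.59 log2 units higher. No unit passed 3 times the median in all 3 genes.

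The levels of the genes around these 3 were read in that unit. Tmem123, the expressed gene next to Birc2, was 3.53 times its median (rank 1 of 34), and Cfap300, which lies 17.1 kb past Yap1, was 2.24 times its median (rank 2). Gm45494, a noncoding RNA that starts beside Yap1, was 4.23 times its median at a low level. Further past Yap1, Cep126 was at 0.858, Trpc6 at 1.36 and Arhgap42 at 0.726 of the median. On the side of Birc2, the metalloprotease genes Mmp3, Mmp10, Mmp8 and Mmp27 were at 11.2, 9.2, 15.6 and 8.23 times medians that are all below 3 CPM. Beyond these, Mmp12 was at 0.155, Mmp13 at 1.06, Dcun1d5 at 0.674 and Dync2h1 at 1.05 of the median. Of the genes within 1 Mb with a median above 10 CPM, those over 2 times were thus the unbroken run Tmem123, Birc2, Birc3, Yap1 and Cfap300. That limit on the median was not part of the design, and without it the run began at Mmp3. Further out, the growth factor gene Pdgfd reached 2.64 times its median, the highest of the 34 units, Gucy1a2 was at 2.36 times its median, and 5 predicted genes 4890 to 4930 kb away (Gm26870, Gm10722, Gm11168, Gm10718 and Gm10717) were 10.6 to 75.9 times medians below 1 CPM. Of genes with a mean of at least 1 CPM, 8 of 15 within 1 Mb of Yap1 and 13 of 29 within 5 Mb exceeded 2 times their median. DNA copy number was not analysed here.

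In unit 1580 a different set of genes around Yap1 was high. Yap1 was 10 times its median, the genes next to it on the far side from Birc3 were raised, and its neighbours on the near side were not. Cfap300 was 18.4, Cep126 20.7 and Arhgap42 16.1 times the median, each the highest of the 34 units, while Trpc6 between them was at 0.686. Birc2 was at 0.922, Birc3 at 0.469 and Tmem123 at 0.413 of the median. In this unit 16.1% of the 14896 genes exceeded 2 times their median, more than in any other unit. Raised genes were found further out on the side of Birc3 too, where Mmp3 was 6.32 and Mmp12 2.11 times the median, and Gucy1a2, 4040 kb before Yap1, was 24.3 times its median and highest in this unit. In all, 6 of 15 genes within 1 Mb and 9 of 29 within 5 Mb passed 2 times.

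In the other units with high Birc2, Yap1 was not high. Unit 1606 had Birc2 at 2.34, Birc3 at 2.31 and Yap1 at 1.48 times the median, with 8.82% of genes over 2 times. Raised genes further out included Dync2h1 at 2.5, Casp1 at 2.94 and Casp12 at 3.2 times the median, and 5 of 15 genes within 1 Mb and 12 of 29 within 5 Mb passed 2 times. Unit 1512 had Birc2 at 3.13, Birc3 at 1.23, Tmem123 at 1.91 and Yap1 at 0.945 times the median, with 9.63% of genes over 2 times. Aasdhppt was at 2.98 and Alkbh8 at 2.11 times the median there, and 2 of 15 genes within 1 Mb and 5 of 29 within 5 Mb passed 2 times. Of 872 genes of chromosome 9, 15.7% passed 2 times in unit 1512, the largest share of any unit. That share was 8.49% in unit 1431/471, 10.6% in 1580 and 4.93% in 1606.

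**Figure D2:**
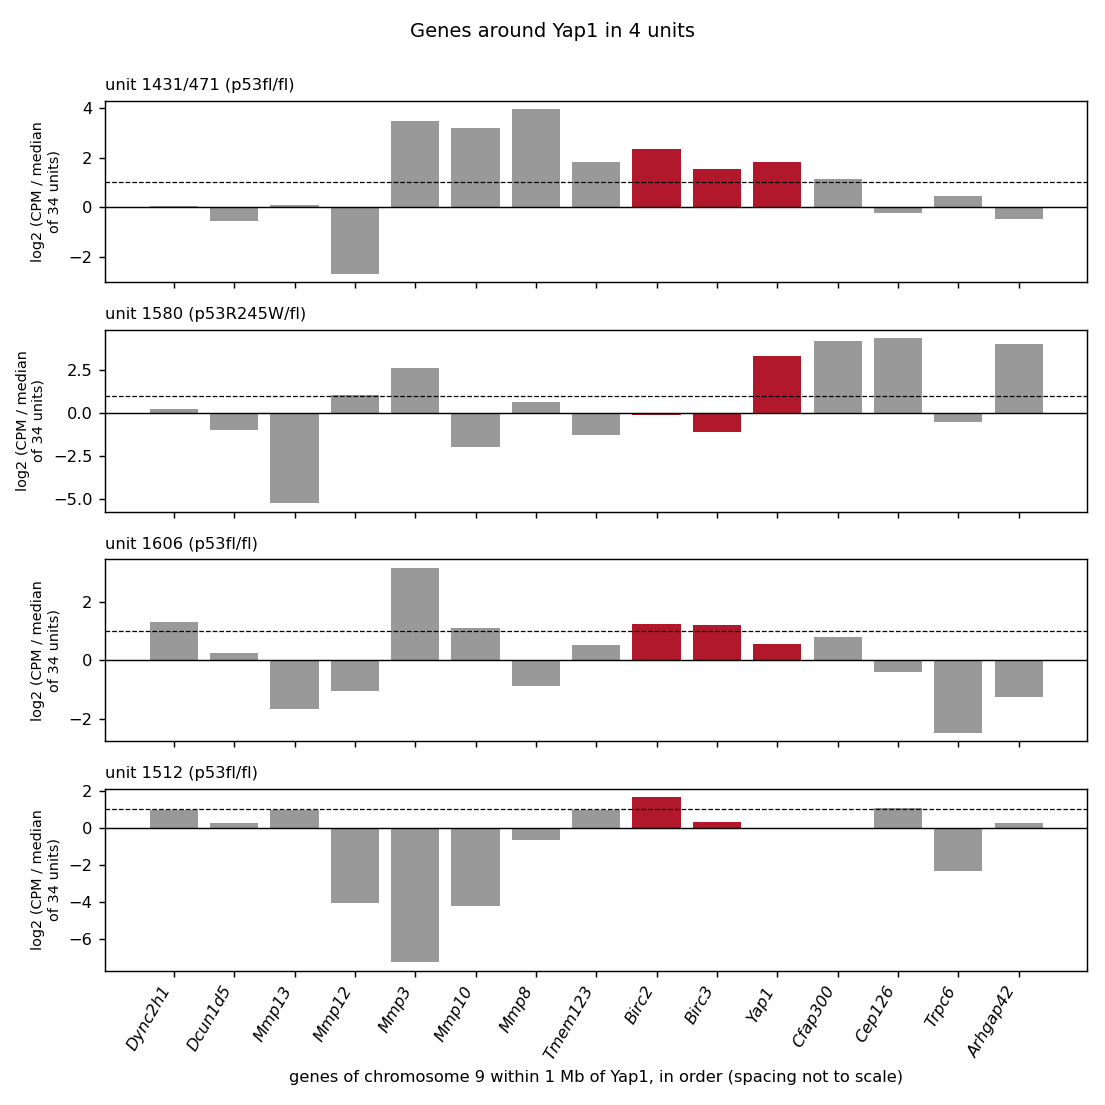
Log2 of CPM over the median of the 34 units for the 15 genes of chromosome 9 within 1 Mb of Yap1 with a mean of at least 1 CPM, in gene order, in 4 units. Red bars are Yap1, Birc2 and Birc3, the dashed line is 2 times the median, and each panel has its own vertical scale. In unit 1431/471 every plotted gene from Mmp3 to Cfap300 is above the dashed line, with low medians for Mmp3, Mmp10 and Mmp8. Of the red genes, only Yap1 is above that line in unit 1580.

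These units differed in cell type markers too. In unit 1431/471 all 10 osteoclast markers exceeded 2 times their medians, with a sum of 10500 CPM against a median of 4250 CPM over units (rank 4 of 34), and all 10 skeletal muscle markers lay under 0.5 times. In unit 1606, 6 of 10 osteoclast markers exceeded 2 times. In unit 1580, 10 of 10 osteoblast markers and 9 of 10 osteoclast markers lay under 0.5 times their medians, and the epithelial list summed to 2540 CPM against a median of 7.03 CPM. Of that sum, the tight junction gene Cldn1 gave 2290 CPM and Perp 248 CPM, while Krt14 and Krt18 were below 1 CPM. The share of all genes under 0.5 times is not given for these units. The part of cell composition in the high units was not tested. In bulk RNA, more cells of a type and more RNA per cell cannot be told apart.

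Over the 34 units, Birc2 and Birc3 rose and fell together, whereas Yap1 did not follow both. The correlations use log2 CPM with a prior count of 2 and permutation tests (two-sided), adjusted over the 36 pairs of members. For Birc2 and Birc3, Pearson's r was 0.68 (permutation p 3e-05, adjusted 0.0011) and Spearman's rho 0.66 (permutation p 3e-05, adjusted 0.0011). Without the 2 units farthest from the median of Birc2, r was 0.62. It was 0.87, 0.63 and 0.47 within p53fl/fl, p53R172H/fl and p53R245W/fl units. Within sets it was 0.83 in A, 0.75 in B and 0.39 in C, and in set C the adjusted permutation p was 0.48. For comparison, the median r over 13230 pairs of adjacent protein-coding genes was 0.26, and 7.37% of those pairs reached the r of Birc2 and Birc3. Tmem123 gave r 0.74 with Birc2.

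Yap1 and Birc2 gave r 0.33 (permutation p 0.06, adjusted 0.29) and rho 0.37 (permutation p 0.034, adjusted 0.21), a relation that did not pass the threshold. Leaving out unit 1580 raised r to 0.60 (adjusted permutation p 0.018), and leaving out unit 1431/471 lowered it to 0.11 (adjusted permutation p 0.83). Without both units r was 0.34 (adjusted permutation p 0.32). Within p53fl/fl, p53R172H/fl and p53R245W/fl units r was 0.74, 0.35 and -0.26. Within sets it was 0.66 in A, 0.76 in B and -0.18 in C, none of which passed adjustment. Yap1 and Birc3 gave r -0.04 (permutation p 0.83, adjusted 0.93) and rho -0.03 (permutation p 0.88, adjusted 0.88). By genotype r was 0.76 in p53fl/fl, which holds unit 1431/471, -0.13 in p53R172H/fl and -0.52 in p53R245W/fl, which holds unit 1580. For the same pair r was 0.58, 0.38 and -0.49 within sets A, B and C and 0.04 without the 2 farthest units. Pearson's r of Yap1 with Birc2 thus depended on which of the units 1431/471 and 1580 were included. Spearman's rho moved less, to 0.32, 0.44 and 0.38 without 1431/471, without 1580 and without both, and none of these passed adjustment.

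**Figure D3:**
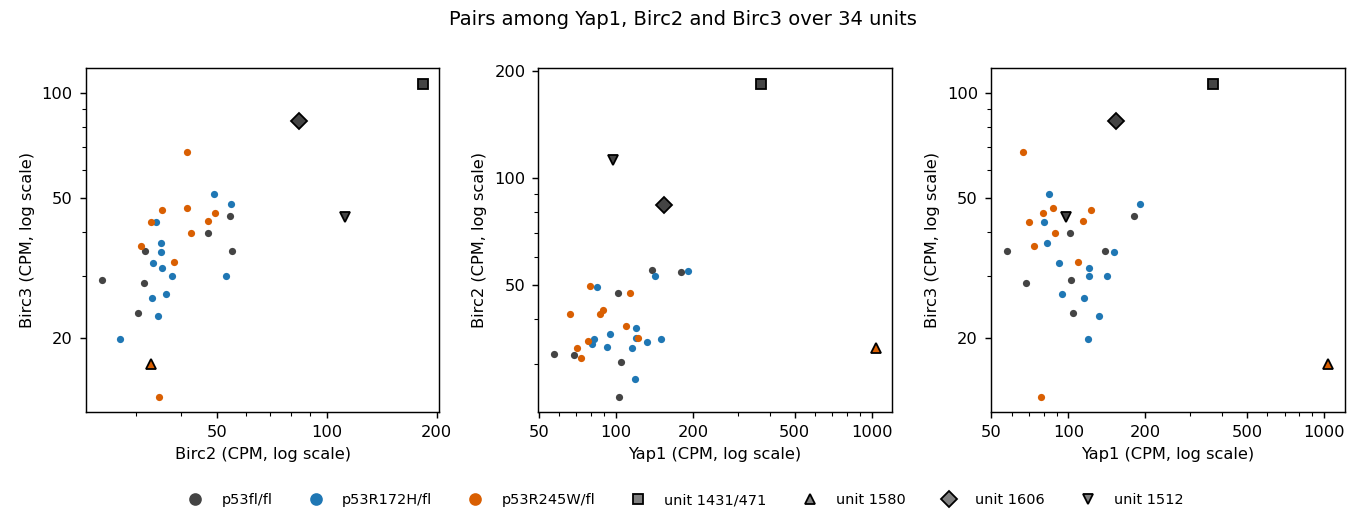
Pairs of Birc2, Birc3 and Yap1 in CPM (log axes) over the 34 units, coloured by genotype, with 4 units marked by shape. Birc2 and Birc3 lie along a diagonal (r 0.68), while unit 1580 lies to the right of all others in both panels with Yap1.

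Between genotypes, no member of the trio rose in a mutant group, and 1 call was made, lower Birc2 in p53R245W/fl. Genes were tested with edgeR's quasi-likelihood test over 19726 genes, and a gene was called at an adjusted p under 0.05 (Benjamini-Hochberg). Between p53R245W/fl and p53fl/fl units edgeR called 9.04% of all genes, 4.35% as lower, and of the 9 members only Birc2. Its log2 fold change was -0.75 (SE 0.25, edgeR adjusted p 0.0474), and 11 of 11 p53R245W/fl units lay below the p53fl/fl median. The call was kept in 9 of 34 fits that left out 1 unit. Without unit 1431/471 the log2 fold change was -0.41 (edgeR adjusted p 0.218), and without the 3 units of low Col1a1 it was -0.69 (edgeR adjusted p 0.143). In a limma fit of the 52 libraries with library set and matched pairs in the model it was -0.53 (limma adjusted p 0.363). Within sets the difference of mean log2 CPM was -0.55 in set B (6 p53R245W/fl and 6 p53fl/fl libraries) and 0.04 in set C (11 and 2 libraries). The 2 p53fl/fl libraries of set C did not come from units 1431/471, 1512 or 1606, which had the highest Birc2. Yap1 had a log2 fold change of 0.35 (SE 0.41, edgeR adjusted p 0.656) in this comparison, and -0.60 (edgeR adjusted p 0.107) without unit 1580. Birc3 was at -0.26 (SE 0.25, edgeR adjusted p 0.565).

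In p53R172H/fl against p53fl/fl, 0.259% of genes were called (0.071% higher and 0.188% lower) and none of the 9 members. DESeq2 and the limma fit with pairs also called 0. Beside 2278 of all 19726 genes, 3 members had an unadjusted edgeR p under 0.05, all lower. They were Birc2 at -0.77 (SE 0.23, edgeR adjusted p 0.154), Ccn2 at -1.20 (SE 0.41, edgeR adjusted p 0.213) and Birc3 at -0.49 (SE 0.24, edgeR adjusted p 0.423) on the log2 scale. Without unit 1431/471 the first 2 were -0.43 (edgeR adjusted p 0.435) and -0.56 (edgeR adjusted p 0.619). Yap1 was at -0.23 (SE 0.39, edgeR adjusted p 0.887), and at 0.09 without unit 1431/471. Between p53R245W/fl and p53R172H/fl units edgeR called 15.2% of genes and none of the 9 members. Of the members 2 had an unadjusted edgeR p under 0.05, beside 6041 of all 19726 genes. DESeq2 called 1 (Ccn1) and the limma fit with pairs called 1 (Wwtr1). Yap1 stood at 0.58 (SE 0.38, edgeR adjusted p 0.311), with 9 of 11 p53R245W/fl units below the p53R172H/fl median, and at -0.40 (edgeR adjusted p 0.232) without unit 1580.

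**Figure D4:**
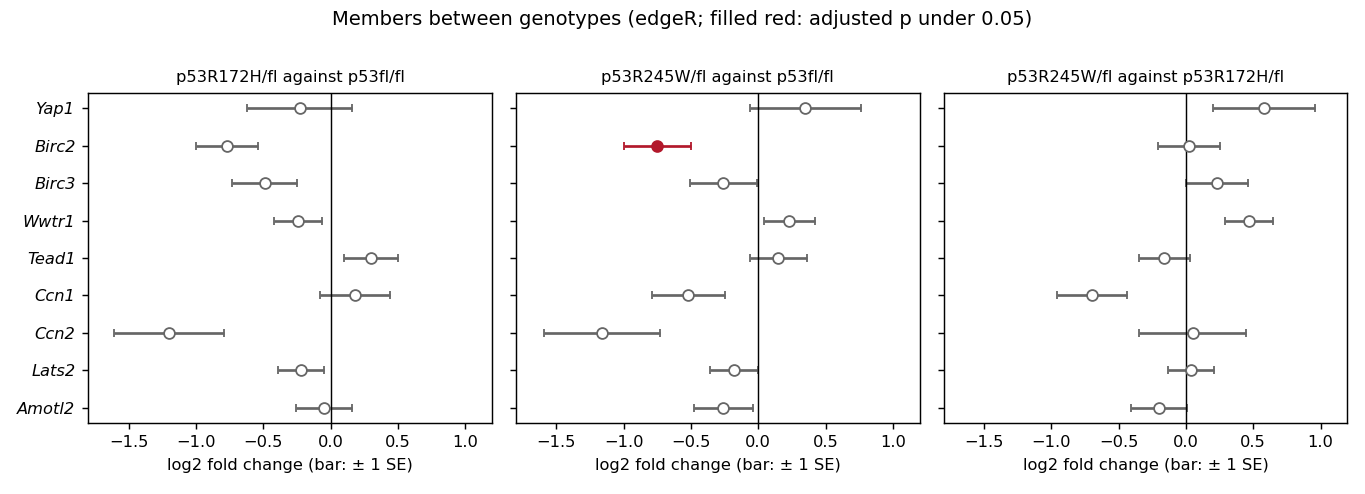
Log2 fold change with 1 SE of the 9 genes in the 3 genotype comparisons, from the edgeR fit of 34 units, with a filled red point where the adjusted p was under 0.05. The only filled point is Birc2 in p53R245W/fl against p53fl/fl, at -0.75.

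Wwtr1, the gene of the second coactivator TAZ, was the member with most p53R245W/fl units above the p53R172H/fl median, 10 of 11. It ran from 95.5 through 163.0 to 246.4 CPM in p53fl/fl, from 99.5 through 125.2 to 324.7 CPM in p53R172H/fl and from 110.2 through 189.1 to 299.0 CPM in p53R245W/fl units. The highest value was in unit 5798, a p53R172H/fl unit that stood apart from the next of its group, 170.5 CPM, and the groups overlapped. The log2 fold change was 0.47 (SE 0.18, edgeR adjusted p 0.0699). In the limma fit with pairs it was 0.60 (SE 0.16, limma adjusted p 0.0388), which passed. The difference of mean log2 CPM was 0.65 within set B and 0.59 within set C. These values are not independent. All p53R245W/fl libraries and most p53R172H/fl libraries of set B were matched to libraries of set C. Without the 3 units of low Col1a1 the log2 fold change was 0.33 (edgeR adjusted p 0.286). Fibroblast markers moved in the same comparison, with a median log2 fold change of 0.78 and 9 of 10 above 0, against a median of 0.06 for all genes, and their part in the difference was not tested. In unit 1580, Wwtr1 was also the highest of the p53R245W/fl group at 299.0 CPM, whereas in unit 1431/471 it was the lowest of all units at 95.5 CPM.

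Tead1, a DNA-binding partner of YAP and TAZ, varied little between groups. It ran from 34.7 through 55.0 to 100 CPM in p53fl/fl, from 35.5 through 64.4 to 140.3 CPM in p53R172H/fl and from 31.6 through 54.8 to 109.4 CPM in p53R245W/fl units. The groups overlapped, and the log2 fold changes were 0.30 (SE 0.20, edgeR adjusted p 0.599) and 0.15 (SE 0.21, edgeR adjusted p 0.721) against p53fl/fl. Units 1383, 1575/431 and 562/475 were the highest of their groups, and none of them was high in Yap1.

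Among the output genes, Ccn2, a secreted matricellular growth factor, spread most. It ran from 38.1 through 192.6 to 1269.2 CPM in p53fl/fl, from 81.5 through 124.5 to 234.0 CPM in p53R172H/fl and from 35.6 through 133.3 to 264.8 CPM in p53R245W/fl units. The highest value was in unit 1431/471, 9.39 times the median of all units, and the next was 602.6 CPM in unit 1522, where Yap1 was only 68.3 CPM. In unit 1580, with the most Yap1, Ccn2 was 133.3 CPM. Against p53fl/fl the log2 fold change was -1.16 (SE 0.43, edgeR adjusted p 0.0846) in p53R245W/fl. Without unit 1431/471 it was -0.51 (edgeR adjusted p 0.442).

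Ccn1, a secreted relative of Ccn2, ran from 45.1 through 102.3 to 179.0 CPM in p53fl/fl, from 51.4 through 101.2 to 232.2 CPM in p53R172H/fl and from 29.5 through 75.4 to 133.4 CPM in p53R245W/fl units. It was not raised in the units with high Yap1, with 100.6 CPM in 1431/471 and 35.8 CPM in 1580. The lowest 3 units of all, 1835/408, 1827/433 and 1580, were p53R245W/fl, and the groups overlapped. Against p53R172H/fl the log2 fold change was -0.70 (SE 0.26, edgeR adjusted p 0.058), with 9 of 11 units below the p53R172H/fl median. Without the 3 units of low Col1a1, 2 of which are among the lowest in Ccn1, it was -0.51 (edgeR adjusted p 0.232). With all units it passed in DESeq2 at -0.71 (DESeq2 adjusted p 0.0365) and did not in the limma fit with pairs. The difference of mean log2 CPM was -1.11 within set B and -0.87 within set C, and as for Wwtr1 these sets share most of their matched units.

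Lats2, a kinase that restrains YAP and is itself a YAP target, ran from 62.9 through 80.1 to 147.9 CPM in p53fl/fl, from 53.5 through 88.5 to 108.2 CPM in p53R172H/fl and from 56.9 through 77.7 to 142.9 CPM in p53R245W/fl units. The highest unit of p53fl/fl was 1431/471 and that of p53R245W/fl was 1580, the units with high Yap1, but unit 1640/486 reached 147.1 CPM with 179.8 CPM of Yap1. Yap1 and Lats2 gave r 0.55 (permutation p 0.00058, adjusted 0.01) and rho 0.40 (permutation p 0.02, adjusted 0.14). Without units 1580 and 1431/471, which are also the 2 farthest from the median of Yap1, r was 0.30 (adjusted permutation p 0.34), so the pooled relation passed adjustment only with those units. Within p53fl/fl, p53R172H/fl and p53R245W/fl units r was 0.46, 0.56 and 0.66, and the p53R172H/fl group holds neither unit. Within sets A, B and C, each of which holds a library of these units, it was 0.56, 0.63 and 0.56.

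Amotl2, a junction protein of the angiomotin family that holds YAP at junctions, ran from 41.3 through 85.1 to 110.7 CPM in p53fl/fl, from 21.0 through 76.2 to 138.3 CPM in p53R172H/fl and from 45.9 through 66.5 to 105.0 CPM in p53R245W/fl units. It was 79.5 CPM in unit 1431/471 and 66.5 CPM in unit 1580, both inside their groups. Its log2 fold changes were -0.05, -0.26 and -0.20 in the 3 comparisons, none called, and all groups overlapped.

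The output genes other than Lats2 had positive correlations with each other, and no pair passed adjustment over the 34 units. Ccn1 and Ccn2 gave r 0.43 (adjusted permutation p 0.096) and rho 0.45 (adjusted permutation p 0.088), as did Ccn1 and Amotl2, and without the 2 farthest units r was 0.32 and 0.38. Ccn2 and Amotl2 gave r 0.41 (adjusted permutation p 0.14) and rho 0.44 (adjusted permutation p 0.088), with r 0.40 without the 2 farthest units. Within sets A, B and C the 3 pairs gave r from 0.32 to 0.49. Ccn1 and Ccn2 passed without units 1431/471 and 1580, with r 0.53 (adjusted permutation p 0.034). Over 52 single libraries, which count matched libraries as separate, all 3 pairs passed (adjusted permutation p 0.0082, 0.0082 and 0.046). Wwtr1 had no relation past adjustment with any of the 4 output genes, with r from -0.28 (Ccn1) to 0.22 (Amotl2). Yap1 gave r -0.08 with Ccn1, 0.27 with Ccn2 and 0.14 with Amotl2.

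**Figure D5:**
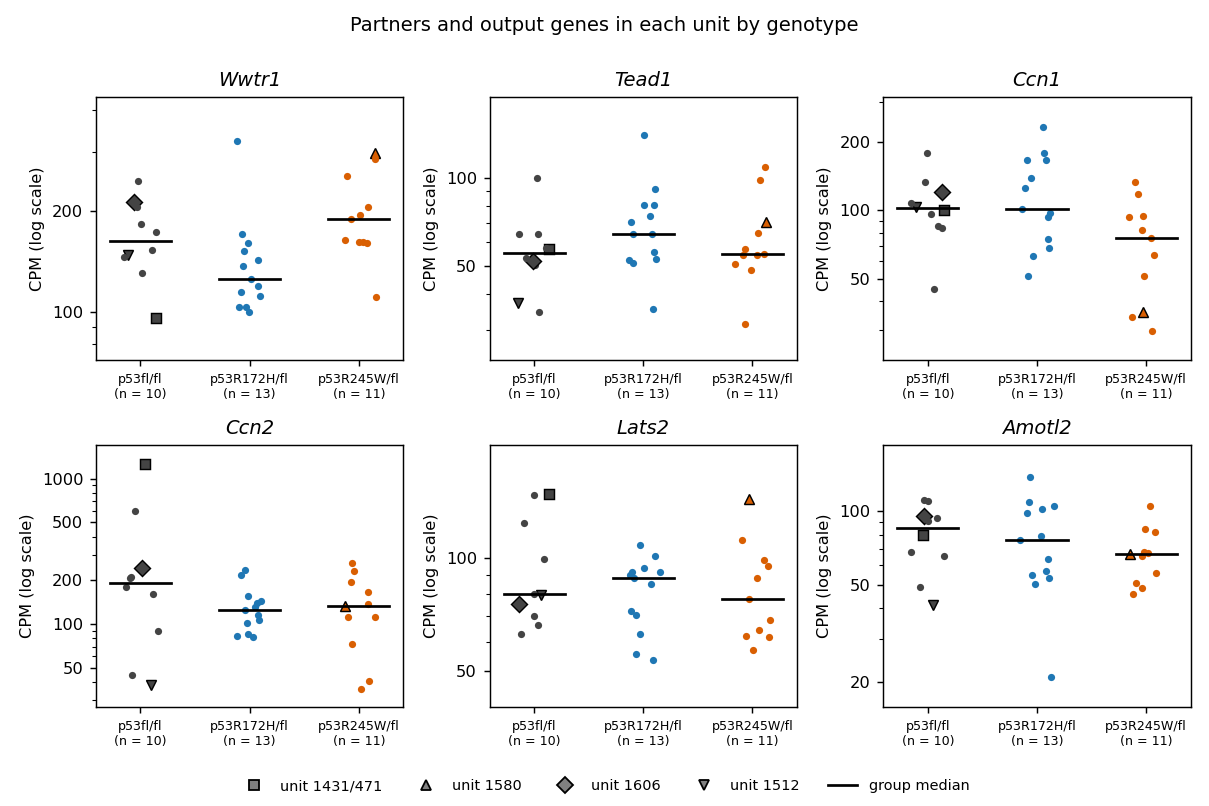
Level of Wwtr1, Tead1, Ccn1, Ccn2, Lats2 and Amotl2 in CPM (log axes) in each of the 34 units, by genotype, with the group median as a bar and 4 units marked by shape. Unit 1431/471 is the highest in Ccn2 (1269.2 CPM) and the lowest in Wwtr1 (95.5 CPM), and unit 1580 is near the bottom in Ccn1 (35.8 CPM).

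A wider list of 22 YAP and TAZ target genes, which includes Ccn1, Ccn2, Lats2 and Amotl2, was read in the same units. In unit 1431/471, 2 of 22 exceeded 2 times the median (Ccn2 and Dock5), against 7.43% of all genes, and 3 lay under 0.5 times, among them Ankrd1 at 0.14 and Igfbp3 at 0.304 of the median. In unit 1580, 5 of 22 exceeded 2 times, against 16.1% of all genes. These were Axl (2.1 times, a receptor tyrosine kinase), Crim1 (3.99 times), Dock5 (4.08 times), F3 (6.04 times, tissue factor) and Fjx1 (3.61 times), and 6 lay under 0.5 times, with Myof at 0.184. Unit 1606 had 6 of 22 over 2 times, against 8.82% of all genes. Unit 1512 had 2 over, against 9.63% of all genes, and 12 under. The share of all genes under 0.5 times is not given here, so the counts under that limit have no background beside them. The counts over 2 times in the units with high Yap1 were not tested against the shares of all genes.

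Of the kinase cascade and its upstream regulators, unit 1580 had 3 of 24 genes over 2 times the median, against 16.1% of all genes. They were the scaffold gene Wwc1 (23.5 times), Ajuba (7.98 times) and Frmd6 (4.55 times). In unit 1431/471, where 7.43% of all genes passed, only Wwc1 exceeded 2 times (3.3 times). Of 11 coactivator and partner genes, Tead3 (2.35 times), Vgll3 (3.91 times) and Yap1 exceeded 2 times in unit 1580, and Yap1 alone in unit 1431/471. Of 21 partners of the cIAP proteins in TNF receptor and NF-kB signalling, none exceeded 2 times in unit 1431/471.

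The same lists were compared between genotypes beside the share of all genes called. In p53R172H/fl against p53fl/fl, where 0.259% of all genes were called, edgeR and DESeq2 called 0 genes of any of the 5 lists, and at an unadjusted edgeR p under 0.05 there were 3 of 24 cascade genes, 0 of 11 partners, 3 of 22 targets, 3 of 9 IAP genes and 0 of 21 IAP partners, beside 2278 of all 19726 genes. The smallest p in the cascade belonged to Strn3 (log2 fold change -0.49, edgeR adjusted p 0.173) and to the MST kinase gene Stk3 (-0.50, edgeR adjusted p 0.335). List medians ran from -0.15 to -0.01 on the log2 scale, against -0.03 for all genes.

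Against p53fl/fl, where 4.68% of all genes were called higher and 4.35% lower in p53R245W/fl, 1 cascade gene was called higher and 1 lower of 24. Mob1b, a cofactor of LATS kinases, was higher (0.39, SE 0.13, edgeR adjusted p 0.0473) and the kinase gene Taok2 lower (-0.52, SE 0.13, edgeR adjusted p 0.0115). Of 22 targets, Gadd45a was higher (1.14, SE 0.34, edgeR adjusted p 0.0307) and Arhgef17 lower (-0.63, SE 0.17, edgeR adjusted p 0.0155). Of 9 tested IAP genes Birc2 alone was called. By edgeR none of 11 partners and none of 21 IAP partners was called, with 1 and 5 at an unadjusted p under 0.05 beside 4797 of all 19726 genes, and DESeq2 called 0 and 2. Without the 3 units of low Col1a1, Mob1b was still called (edgeR adjusted p 0.0486), whereas Taok2 (-0.41, edgeR adjusted p 0.0864), Gadd45a (0.89, edgeR adjusted p 0.12) and Arhgef17 (-0.49, edgeR adjusted p 0.11) were not.

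Against p53R172H/fl, 8.8% of all genes were called higher and 6.41% lower in p53R245W/fl. Of 24 cascade genes, 3 were higher, Mob1b (0.50, SE 0.12), Mob1a (0.39, SE 0.13) and Strn3 (0.43, SE 0.15), and Taok2 was lower (-0.57, SE 0.12). Of 22 targets edgeR called only Arhgef17, as lower (-0.59, SE 0.16). Of 11 partners edgeR called none, with 2 at an unadjusted p under 0.05 beside 6041 of all 19726 genes, while DESeq2 called 1 and the limma fit with pairs called 1, Wwtr1. Of the IAP family Xiap, an inhibitor of caspases, was higher (0.51, SE 0.13, edgeR adjusted p 0.00979). Of 21 IAP partners 3 were higher, among them the NF-kB inhibitor Nfkbia (0.68, SE 0.21) and the receptor adaptor Tradd (0.44, SE 0.15). Without the 3 units of low Col1a1, Mob1b, Mob1a and Taok2 were still called, whereas Strn3 (edgeR adjusted p 0.30), Arhgef17 (edgeR adjusted p 0.0896), Xiap (edgeR adjusted p 0.051), Nfkbia (edgeR adjusted p 0.108) and Tradd (edgeR adjusted p 0.263) were not. In the limma fit with pairs Wwtr1 was the only gene of the 5 lists called in either comparison. The 2 comparisons share the p53R245W/fl units.

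Among the genes whose levels were most like Yap1 over the 34 units were Cfap300 (r 0.76), Zfp809 (0.72), Arhgap42 (0.67), Ehbp1 (0.66), Zfp970 (0.66), Clec1a (0.66) and Slc5a6 (0.63) by Pearson's r of log2 CPM. Units 1431/471 and 1580 carried much of this, since without them r was 0.43 for Cfap300, 0.21 for Zfp809 and -0.06 for Clec1a. By Spearman's rho the first 8 included Gigyf2 (0.64), Ptchd4 (0.63), Dync2h1 (0.62), Cfap300 (0.58), Scaf8 (0.58), Zc3h8 (0.56) and Ehmt1 (0.55). Cfap300, Dync2h1 and Arhgap42 lie within 1 Mb of Yap1. Birc2 ranked 852 and Birc3 ranked 8024 of 14895 genes by r with Yap1.

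For Birc3 the nearest genes by r were Tfec (0.83), Rnf149 (0.81), Traf1 (0.78), the chemokine gene Ccl9 (0.76) and Pik3r5 (0.76), each on another chromosome, with r of at least 0.70 without the 2 units. For Ccn2 they were Glt28d2 (0.70), Fam160a1 (0.68), Heca (0.64), Colq (0.64) and Tmem204 (0.63), and for Ccn1 they were Pfkfb1 (0.68), Snx30 (0.68), Cep250 (0.67), Col24a1 (0.67) and Carns1 (0.64). Neither list held another member. These are descriptions over 34 units that share depth and composition, with no test.

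Against summed levels of 10 lists of cell type markers, 2 of 90 relations passed adjustment. Birc3 followed osteoclast markers with r 0.54 (adjusted permutation p 0.032) and rho 0.56 (adjusted permutation p 0.029), 0.62 without the 2 farthest units, and 10 of 10 markers had a positive r. Wwtr1 followed fibroblast markers with r 0.56 (adjusted permutation p 0.032) and rho 0.56 (adjusted permutation p 0.029), 0.57 without the 2 farthest units, and 9 of 10 markers had a positive r. Tead1 and skeletal muscle markers gave r 0.52 (adjusted permutation p 0.054), which did not pass. Yap1, Birc2 and the 4 output genes had no relation past adjustment with any list over the 34 units. For Yap1, some r depended on the 2 farthest units. With osteoblast markers r was -0.17 (rho -0.08, 0 of 10 markers with a positive r) and -0.59 without those units. With epithelial markers r was 0.46 and 0.02 without them. The values without those units were not tested. The part of these cells in the differences between units was not tested.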

How the data were processed

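The deposited file is 1 table of read counts per gene for 52 libraries. Reads were aligned with STAR to GRCm38, per the submitters' processing notes, and the counts were not normalized, judged from their whole numbers and unequal totals. The sources used here name neither a counting tool nor an annotation release. Of 20730 gene identifiers, 20668 matched GENCODE M21 by identifier without version, and 62 did not.

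In set B, 18 libraries each matched 1 library of another set and the same genotype by Spearman correlation over 13417 genes (0.637 to 0.929, next best at most 0.514). Matched libraries were summed, since the labels do not say whether they share a tumour. Genes passing edgeR's filter (minimum count 10) were tested with edgeR 4.0.16 (TMM, quasi-likelihood test) in R 4.3.3, with Benjamini-Hochberg adjustment and a threshold of 0.05, on all 34 units. The test was checked on simulated data. DESeq2 1.42.0, limma 3.58.1 (voom on the 52 libraries with set as a covariate and the matched pair as a block, pair correlation 0.857), RLE factors, a minimum count of 50, no filter, single libraries and omission of each unit were alternatives. DESeq2 replaced the Yap1 count of unit 1580, 58917, by 5908.

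Correlations used log2 CPM with a prior count of 2 and 100000 permutations. Marker relations were not computed within sets. The members and the gene lists were chosen with earlier results of these data known. Named genes were the members, Trp53, up to 4 called genes of each list by adjusted p or up to 2 by p where none was called, genes around Yap1, and the genes most like Yap1, Ccn1, Ccn2 and Birc3. Tmem123 and Dync2h1 beside Birc2, and genes over 2 times their median in single units, were named after their values were seen. Promoter windows came from RefSeq on GRCm38.p6. Some genes that the naming rule selects are not reported here.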

Additional observations from a re-analysis of the deposited data

Results flagged for a closer look

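Among the 9 genes, 3 had a p53fl/fl unit that lay far from the other 9 units of its group, by the gap to the nearest unit as a share of the group's whole range. Chance flags about 1 in 20 groups where values are normally distributed. The rule was applied to CPM, and the gaps were not computed on log2 CPM. Yap1 was 368.8 CPM in unit 1431/471, a gap of 0.607 of the range, and the other units ran from 57.3 to 179.8 CPM. Ccn2 was 1269.2 CPM in the same unit, a gap of 0.541, and the others ran from 38.1 to 602.6 CPM. Tead1 was 100 CPM in unit 562/475, a gap of 0.547, and the others ran from 34.7 to 64.3 CPM. The groups of 13 and 11 units were too large for this rule.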

How the results depend on the processing

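The number of genes called depended on the fit. In p53R172H/fl against p53fl/fl it was 51, and it became 708 with 52 single libraries, 910 with library set as a covariate as well, 285 with DESeq2, 135 with no filter, 2 with the paired voom fit and 16 to 74 when 1 unit was left out (16 without unit 1431/471, 26 without 1606, 26 without 627 and 33 without 383/344). In p53R245W/fl against p53fl/fl, 1783 became 3365 with single libraries, 1005 with set, 3 in the paired fit, 923 with the 2 groups alone, 853 without low Col1a1 units and 1266 to 2278 with 1 unit left out. Between the mutant groups, 3000 became 5829, 293 in the paired fit, 1280 without low Col1a1 units and 2212 to 3285 with 1 unit left out. Single-library fits treat matched libraries as independent.

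Of the 9 members, 0 were called in p53R172H/fl against p53fl/fl, and 2 in both single-library fits, Birc2 (-0.77 in both) and Ccn2 (-1.19, and -1.17 with set), with 0 to 0 when 1 unit was left out. In p53R245W/fl against p53fl/fl, 1 member was called, 2 with single libraries (Ccn2 at -1.24), and 0 with set (Birc2 at -0.76), in the paired fit (-0.53), with RLE factors (-0.74), with the 2 groups alone (-0.74) and without low Col1a1 units (-0.69), and 0 to 1 with 1 unit left out. Between the mutant groups, 0 members were called, 2 with single libraries, with or without set, 1 with DESeq2, 1 at a minimum count of 50, 1 in the paired fit and 0 to 2 with 1 unit left out. These were Wwtr1 (0.52, 0.62 with set, 0.60 paired) and Ccn1 (-0.82 in both, -0.71 with DESeq2, -0.74 at minimum count 50).

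Several log2 fold changes that were not called changed sign. Yap1 in p53R245W/fl against p53fl/fl was -0.04 with single libraries, -0.21 with set, -0.60 with DESeq2, -0.10 paired, -0.54 without low Col1a1 units -0.60 without unit 1580, 0.44 without 1833 and 0.67 without 1431/471. DESeq2 had replaced the count of unit 1580. Against p53R172H/fl Yap1 was -0.39 with DESeq2, -0.03 paired, -0.33 without low Col1a1 units -0.40 without unit 1580 and 0.66 without 865. In p53R172H/fl against p53fl/fl Yap1 was 0.09 without unit 1431/471, and Amotl2 was 0.0021 with set, 0.01 without 1522, 0.01 without 1640/486 and 0.03 without 1441. In the paired fit Amotl2 was 0.03 in p53R245W/fl against p53fl/fl and 0.11 against p53R172H/fl. Between the mutant groups, Birc2 was -0.00095 with single libraries, -0.01 at minimum count 50, -0.02 paired, and -0.01, -0.02 and -0.02 without units 383/344, 1817/485 and 1818, against 0.07 without 865. Ccn2 was -0.05 with single libraries, -0.08 with set, -0.13 paired, and -0.00029, -0.06, -0.02 and -0.10 without units 622/524, 1575/431, 1817/485 and 1818, against 0.07 without 1813. Lats2 was -0.10 without low Col1a1 units, -0.06 without 1580 and -0.01 without 1835/408. The cause was not tested.

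Yap1 and Birc2 gave r 0.43 over 52 libraries, -0.18 in set C, 0.62 without low Col1a1 units and 0.60 without unit 1580. Yap1 and Birc3 gave r 0.08 over 52 libraries, 0.58 in set A, 0.38 in set B, 0.39 without low Col1a1 units, 0.32 without unit 1580 and 0.04 without units 1431/471 and 1580 or the 2 farthest units. Yap1 and Lats2 gave 0.56 in sets A and C, 0.49 without low Col1a1 units, 0.46 without unit 1580 and 0.30 without both units. Birc2 and Birc3 gave 0.39 in set C. The omissions of units 1431/471 and 1580 from correlations were chosen after seeing the data. The number of units high in all 3 neighbours was 0 at 3 times the median. Counted as single libraries it was 2, the libraries 1431 and 471 that make up unit 1431/471.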

Other observations

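Genes whose levels were most like Lats2 over the 34 units lay mostly on its own chromosome. Of the 50 genes with the highest Pearson r with Lats2, 32 were on chromosome 14, which held 3.22% of the 14895 genes compared, and 34 of 50 were by Spearman's rho. For Wwtr1, 12 of 50 by r were on its chromosome 3 (5.52% of genes), and for Tead1 12 of 50 were on its chromosome 7 (7.37% of genes). For Yap1 it was 4 of 50 and for Birc2 9 of 50 on chromosome 9 (5.85% of genes). These counts were looked at after the values were seen, with no test.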
